A study of Homo sapiens with 4 samples.

Results

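The genes described are 36 genes of the lysosome and of its proton pump, the vacuolar ATPase (V-ATPase), out of 20033 protein-coding genes. They were taken from a fixed list of symbols, all 36 of which matched RefSeq on GRCh38.p14. A gene was given the highest FOXK1 peak that touched a window reaching 1 kb to each side of its annotated start or end, called its gene-end peak. FOXK1 is a forkhead transcription factor, and HK-2 is an immortalised line from human proximal tubular epithelium. The control HK-2 cells had no TGF-β1, the others had 10 ng/ml of this fibrotic cytokine for 24 h, and each condition gave 1 library from FOXK1 immunoprecipitation and 1 from input chromatin. The culture plates served transfection as well as treatment, and the labels do not say whether the cells used here were transfected. With 1 FOXK1 library per condition there were no replicates, so nothing below tests TGF-β1.

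The lysosome breaks down material delivered by endocytosis and autophagy, using hydrolases that work at acid pH. The V-ATPase makes that acid: its V1 sector hydrolyses ATP in the cytosol and drives its V0 sector, which moves protons across the membrane. TFEB, TFE3 and MITF, of the MiT family, activate lysosomal genes through the CLEAR element, which holds an E-box, when mTORC1 signalling on the lysosome falls. Proximal tubular cells take up and degrade large amounts of filtered protein and so depend on this system. FOXK1 is best known for holding down autophagy and atrophy genes when nutrients are plentiful.

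Promoters under the highest FOXK1 peaks of these genes are shown first, because the motif counts given later refer to such windows. RefSeq windows on GRCh38.p14, from 250 bases before to 50 after a transcription start, were found for 27 of the 36 genes. The genes printed were those with a strong peak, one among about the 10000 highest of its list, over the window both without and with TGF-β1, in order of height without it. Another 5 genes that were strong in both lists had no window or no strong peak over it. Capitals mark E-boxes (CACGTG), forkhead letters (TGTTTNC) and ETS letters (CCGGAAG) on either strand. The windows are ATP6V1D at chr14:67359755-67360054 on the minus strand, ATP6V1F at chr7:128862606-128862905 on the plus strand, CTSA at chr20:45891085-45891384 on the plus strand, NPC1 at chr18:23586457-23586756 on the minus strand, ATP6V0D1 at chr16:67481108-67481407 on the minus strand and MITF at chr3:69739214-69739513 on the plus strand.
ATP6V1D: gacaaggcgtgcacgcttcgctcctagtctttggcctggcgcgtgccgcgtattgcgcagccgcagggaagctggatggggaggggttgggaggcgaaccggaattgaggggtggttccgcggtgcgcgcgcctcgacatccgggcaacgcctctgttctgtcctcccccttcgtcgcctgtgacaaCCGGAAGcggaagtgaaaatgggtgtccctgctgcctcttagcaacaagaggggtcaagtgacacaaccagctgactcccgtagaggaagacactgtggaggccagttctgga
ATP6V1F: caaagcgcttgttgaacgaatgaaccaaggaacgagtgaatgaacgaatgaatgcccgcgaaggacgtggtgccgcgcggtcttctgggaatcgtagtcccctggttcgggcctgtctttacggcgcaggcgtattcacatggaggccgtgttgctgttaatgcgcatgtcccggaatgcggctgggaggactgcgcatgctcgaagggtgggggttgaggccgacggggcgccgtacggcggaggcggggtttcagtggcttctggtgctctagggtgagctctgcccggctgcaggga
CTSA: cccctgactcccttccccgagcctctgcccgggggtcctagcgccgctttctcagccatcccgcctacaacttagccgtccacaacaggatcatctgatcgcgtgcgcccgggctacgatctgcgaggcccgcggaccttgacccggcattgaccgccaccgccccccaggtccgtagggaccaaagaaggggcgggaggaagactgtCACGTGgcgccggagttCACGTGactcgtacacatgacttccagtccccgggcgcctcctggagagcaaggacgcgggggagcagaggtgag
NPC1: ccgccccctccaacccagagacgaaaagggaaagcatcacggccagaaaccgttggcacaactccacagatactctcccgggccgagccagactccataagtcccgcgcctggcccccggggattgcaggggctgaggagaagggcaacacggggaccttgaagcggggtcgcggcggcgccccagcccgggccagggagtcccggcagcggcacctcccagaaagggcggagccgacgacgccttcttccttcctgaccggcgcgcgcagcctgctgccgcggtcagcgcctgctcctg
ATP6V0D1: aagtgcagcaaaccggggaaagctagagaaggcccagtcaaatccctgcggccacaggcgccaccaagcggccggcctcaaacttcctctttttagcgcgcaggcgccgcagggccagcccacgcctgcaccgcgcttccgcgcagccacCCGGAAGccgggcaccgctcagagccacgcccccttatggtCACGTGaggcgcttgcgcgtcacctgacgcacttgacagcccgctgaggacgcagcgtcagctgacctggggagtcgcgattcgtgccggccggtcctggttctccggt
MITF: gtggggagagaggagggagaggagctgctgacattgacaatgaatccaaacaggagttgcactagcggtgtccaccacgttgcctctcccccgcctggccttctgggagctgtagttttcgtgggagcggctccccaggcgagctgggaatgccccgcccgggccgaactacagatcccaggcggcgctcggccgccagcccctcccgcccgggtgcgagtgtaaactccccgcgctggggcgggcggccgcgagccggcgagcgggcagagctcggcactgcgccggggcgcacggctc

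Of these 6 windows, those of CTSA and ATP6V0D1 hold E-boxes, those of ATP6V1D and ATP6V0D1 hold the ETS letters, and none holds the forkhead letters. The next 2 windows were printed because they hold the 8 central letters of the CLEAR element, TCACGTGA, while their peaks were lower. Of the 4 such genes they had the highest untreated peaks, and the windows of LAMP1 and GAA are not printed. They are ATP6V1G1 at chr9:114587519-114587818 and MCOLN1 at chr19:7522374-7522673, both on the plus strand. The last, CTSL at chr9:87725869-87726168 on the plus strand, was chosen after its values were seen, as the 1 gene of the 36 whose window holds the stricter forkhead letters TGTTTAC, here as their reverse complement.
ATP6V1G1: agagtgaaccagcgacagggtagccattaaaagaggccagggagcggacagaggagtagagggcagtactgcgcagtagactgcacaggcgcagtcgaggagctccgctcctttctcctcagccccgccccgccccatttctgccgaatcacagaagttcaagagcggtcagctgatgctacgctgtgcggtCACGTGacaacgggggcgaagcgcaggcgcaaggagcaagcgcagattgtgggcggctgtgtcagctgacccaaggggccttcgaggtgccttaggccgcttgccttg
MCOLN1: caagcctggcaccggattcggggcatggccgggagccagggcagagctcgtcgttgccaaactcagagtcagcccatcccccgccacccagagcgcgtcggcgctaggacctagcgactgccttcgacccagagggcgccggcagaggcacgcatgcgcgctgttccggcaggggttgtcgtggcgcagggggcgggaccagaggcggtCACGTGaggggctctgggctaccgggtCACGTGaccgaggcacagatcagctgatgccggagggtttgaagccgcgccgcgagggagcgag
CTSL: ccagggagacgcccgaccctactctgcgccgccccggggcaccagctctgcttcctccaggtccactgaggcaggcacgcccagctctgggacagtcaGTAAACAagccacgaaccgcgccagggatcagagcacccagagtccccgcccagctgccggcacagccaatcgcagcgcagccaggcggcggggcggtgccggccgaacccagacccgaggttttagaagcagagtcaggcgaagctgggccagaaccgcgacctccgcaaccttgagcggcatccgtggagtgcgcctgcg

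The values were pileup heights, whole numbers of at least 3 that the authors' peak caller gave each peak. Sequencing depth is not known, and height moves with depth. Heights of the library without TGF-β1 and of the library with it are therefore set side by side without reading a change from them. The lists held 381700 and 439136 peaks on assembled chromosomes. Here untreated list and treated list mean the peaks of the cells without and with TGF-β1. A peak was called strong when it was at least as high as the one ranked 10000th in its list, which means a minimum of 17 in the untreated list and 15 in the treated list. Where a pair of heights is given for a gene, the untreated list comes first. Median heights over all genes with a gene-end peak were 10 and 9.

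Nearly all lysosome and V-ATPase genes had a FOXK1 peak, and a larger share of them than of all genes had a strong one. The untreated list placed a gene-end peak at 34 of 36, against 75.3% of all protein-coding genes, and the treated list also at 34 of 36, against 74.6%. A strong peak was found for 14 of 36 (38.9%) in the untreated list, against 17.0% of all genes, and for 14 of 36 (38.9%) in the treated list, against 15.7%. These were not the same 14: 11 were strong in both lists, 30.6% against 11.9% of all genes. The genes were listed with earlier results of these peaks known, so their counts are not independent evidence. The median height of the genes with a peak was 13.5 in the untreated list, with a range from 6 to 41. In the treated list the median was 11 and the range 4 to 53. Among genes with a peak, 6 of the 34 were in the highest 10% in the untreated list and 5 in the treated list.

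**Figure D1:**
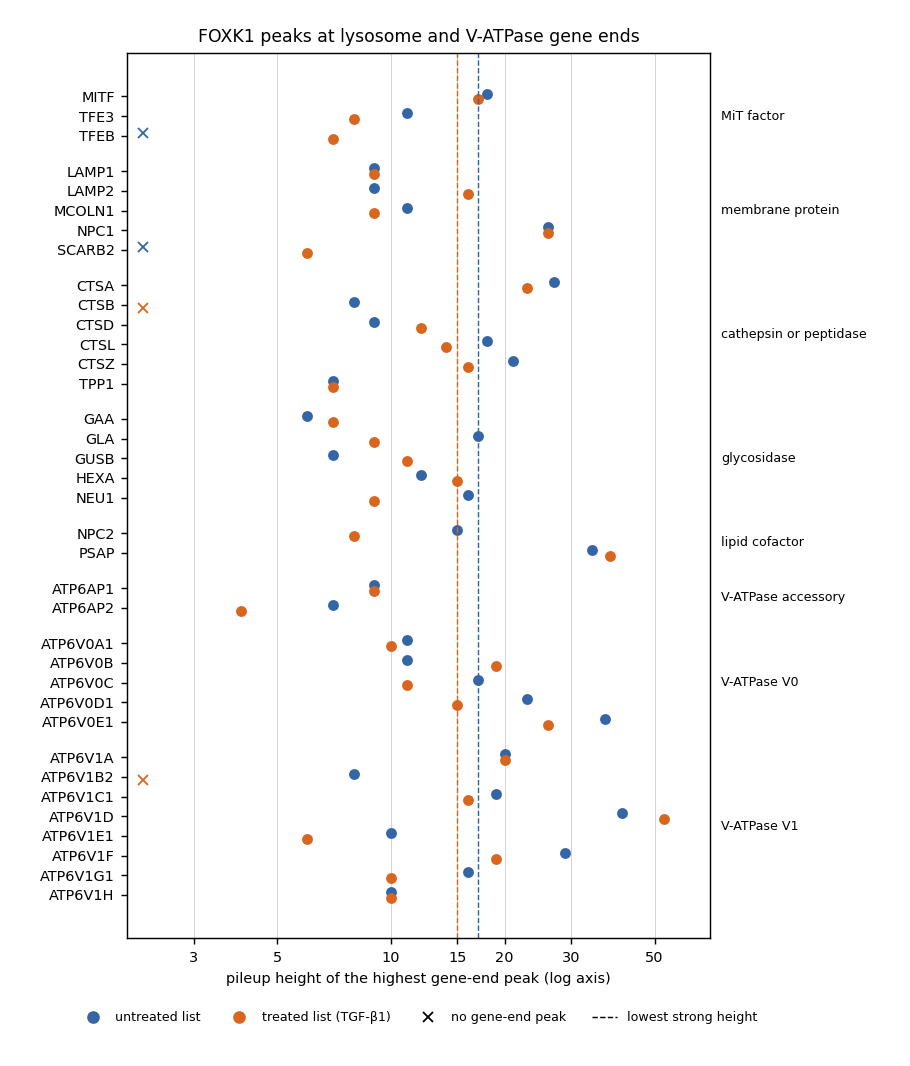
Pileup height of the highest gene-end peak (horizontal, log axis) of the 36 genes, grouped by role, in the untreated list (blue) and the treated list (orange); a cross marks a gene with no gene-end peak in that list and dashed lines mark the lowest strong heights, 17 and 15. The highest points are those of ATP6V1D at 41 and 53, and 11 genes lie at or above both lines.

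The composition of the promoters also differed from that of all genes. CpG-rich promoters, here windows with an observed to expected CpG ratio of at least 0.6, were found for 26 of the 27 genes with a window (96.3%) and for 70.3% of all genes with one. Among all genes with a CpG-rich promoter, 86.1% had a gene-end peak in the untreated list and 85.1% in the treated list. Of the 26, 24 and 26 had such a peak. Strong peaks were found at 10 of the 26 in the untreated list (38.5%), against 23.3% of all CpG-rich genes, and at 8 of the 26 in the treated list (30.8%), against 21.5%. Over the 27 genes with a known strand, counting only the window at the annotated 5′ end of the gene gave 8 strong genes in the untreated list (29.6%). In the treated list it gave 6 (22.2%). The shares over all genes with a known strand were 16.7% and 15.3%. The part of CpG content in the higher counts was not tested.

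The V-ATPase held the highest peak of the list, with strong peaks in both its sectors. Of its 15 genes, 7 were strong in each list (46.7%), against 17.0% and 15.7% of all genes. In both lists 6 were strong (40.0%), against 11.9% of all genes. ATP6V1D encodes the D subunit of the central rotor stalk. Its peak had a height of 41 in the untreated list, at chr14:67358631-67360202, and 53 in the treated list. By height it ranked 518th of 15089 genes in the untreated list and 236th of 14941 in the treated list. The peak spans the transcription start and also lies within 1 kb of an end of EIF2S1, a translation initiation factor gene, so it cannot be given to either gene alone.

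ATP6V1F, the F subunit of the same stalk, had heights of 29 and 19 in the untreated and treated lists, at chr7:128862407-128863026 in the untreated list, over its start. ATP6V1A, the catalytic A subunit, had 20 and 20. Its untreated peak was the widest strong peak of the 36 genes at 3577 bp, from 113744743 to 113748319 on chromosome 3, and reached an end of NAA50. ATP6V1C1, the C subunit that links V1 to V0, had 19 and 16 at the lower-coordinate end of the gene.

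The other 4 V1 genes were strong in neither list. ATP6V1G1, a peripheral stalk subunit, had an untreated peak of 16 over its start, 1 below the strong minimum. No treated peak overlapped it, and the highest treated gene-end peak, of 10, had its midpoint 816 bp downstream of the start. ATP6V1H, the regulatory H subunit, had 10 and 10, and ATP6V1E1, another peripheral stalk subunit, had 10 and 6. The ATP6V1E1 peaks also lay at an end of BCL2L13. ATP6V1B2, the B subunit that binds nucleotide together with A, had 8 without TGF-β1 and lacked a gene-end peak with it. A treated peak of 6 lay just past the window, centred 1435 bp inside the gene. It did not overlap the untreated peak.

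In V0, ATP6V0E1, the small e subunit, had the second highest untreated gene-end peak of the 36, with heights of 37 and 26 at the lower-coordinate end of the gene; the untreated peak covered chr5:172983052-172984748. ATP6V0D1, the d subunit that connects the rotor to the proton-carrying ring, had 23 and 15 over its start, the treated value exactly at the strong minimum. The treated ATP6V0D1 peak also lay at an end of AGRP. ATP6V0C, the c subunit of that ring, was strong in the untreated list only, with 17 and 11. That peak lies at its 3′ end, near an end of AMDHD2, while the peaks over its promoter windows were 10 and 5. ATP6V0B, the c″ subunit, was strong in the treated list only, with 19 against 11, but the 2 heights belong to different places. The treated peak of 19 lay at the 3′ end near B4GALT2, where the untreated list had a peak of 8, and over the promoter window the lists had 11 and 10. ATP6V0A1, an isoform of the a subunit that forms the proton path, had 11 and 10.

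Both accessory subunits were low. ATP6AP1, which helps the pump assemble, had 9 and 9. ATP6AP2, the prorenin receptor, had 7 over its start in the untreated list and 4 in the treated list, the latter at the 3′ end.

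Of the MiT factors, MITF had a strong peak in each list and TFEB and TFE3 did not. MITF had 18 and 17 over its first annotated start, at chr3:69739076-69739691 in the untreated list, and the midpoints in the lists were 9 bp apart. A second MITF start at 69763811 on chromosome 3 had no untreated peak over its promoter window and a treated peak of 21. That treated peak is broad and an untreated peak of 16 overlapped it outside the window, so the place was not in the treated list only. The highest peak inside MITF, clear of the gene ends, had heights of 24 and 23. TFE3 had 11 in the untreated list, upstream of its start, and 8 in the treated list. A pair of treated peaks tied at that height, and 1 of them, over the promoter window, overlapped the untreated peak. TFEB had no gene-end peak in the untreated list and a peak of 7 in the treated list, near PGC. None of its 3 promoter windows held a peak in either list. The highest peak inside TFEB had 10 in the untreated list and 13 in the treated list, and these overlapped.

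Peaks at the hydrolase genes were unequal. CTSA, cathepsin A, also known as protective protein for the enzymes made by NEU1 and GLB1, had 27 and 23 over its start, at chr20:45890976-45892300 in the untreated list, near ends of NEURL2 and SPATA25. CTSZ, cathepsin Z, had 21 and 16. Its strong peaks lay at its 3′ end, 11236 bp from its start by midpoint in the untreated list, and at an end of NELFCD, a negative elongation factor subunit. Over the CTSZ promoter window the untreated list had a peak of 10 and the treated list none. CTSL, cathepsin L, was strong in the untreated list only, with 18 and 14, and the treated value lay 1 below the minimum of that list. CTSD, cathepsin D, had 9 and 12, and TPP1, a tripeptidyl peptidase, 7 and 7 at different ends of the gene, with 7 and 5 over its start. The treated TPP1 peak of 7 also lay near ends of ILK and TAF10. CTSB, cathepsin B, had 8 without TGF-β1 and lacked a gene-end peak in the treated list, where a peak of 5 overlapped the untreated peak beyond the window.

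Of the 5 glycosidase genes, 1 was strong in each list (20.0%), against 17.0% and 15.7% of all genes. None was strong in both lists, against 11.9% of all genes. The set is too small to read a difference from these counts. GLA, alpha-galactosidase A, was strong in the untreated list only, with 17 and 9 over its start, in a peak that also lay at an end of HNRNPH2. HEXA, a beta-hexosaminidase subunit, was strong in the treated list only, with 12 and 15, at the lower-coordinate end. Each of these sits exactly on the strong minimum of its list. NEU1, a sialidase, had 16 and 9, in overlapping peaks that also lay at an end of SLC44A4. The treated peak of 9 lay upstream of the NEU1 start, and over the promoter window the lists had 16 and 8. GUSB, beta-glucuronidase, had 7 and 11, and GAA, acid alpha-glucosidase, 6 and 7 at places that did not overlap. The untreated GAA peak also lay at an end of CCDC40.

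Among genes for lipid handling, PSAP and NPC1 were strong in both lists and NPC2 in neither. PSAP, the precursor of the saposins that present sphingolipids to hydrolases, had 34 and 38 at its higher-coordinate end, at chr10:71850055-71851528 in the untreated list. It was the 1 gene besides ATP6V1D above 30 in both lists. A separate peak inside PSAP, centred 2201 bp from that end in the untreated list, had 41 and 30. NPC1, the membrane protein that exports cholesterol, had 26 and 26 over its start, at chr18:23586118-23587201 in the untreated list. NPC2, the soluble protein that hands cholesterol to NPC1, had 15 and 8 over its start, in a peak that also lay at an end of ISCA2.

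The other membrane protein genes were strong in at most 1 list. LAMP2, a structural membrane glycoprotein also needed for chaperone-mediated autophagy, had 9 in the untreated list and 16 in the treated list, and the peaks overlapped. LAMP1, its relative, had 9 and 9, and MCOLN1, the calcium channel of the lysosome, 11 and 9. SCARB2, the receptor that brings glucocerebrosidase to the lysosome, had no gene-end peak in the untreated list and 6 in the treated list. Its annotated end lies far from its promoter window, though, and over that window the lists had overlapping peaks of 10 and 9. A peak inside SCARB2 was strong in each list, with 22 and 22.

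The highest gene-end peaks of the lists overlapped by at least 1 bp for 26 of the 36 genes (72.2%), against 46.0% of all genes, and their midpoints were a median of 183 bp apart. With a reciprocal overlap of 50% required, 17 of the 36 remained (47.2%), against 27.9% of all genes. At ATP6V0A1 the shared stretch was 21 bp. For 6 more genes each list had a gene-end peak but the highest peaks did not overlap; these were TFE3, ATP6V0B, ATP6V1G1, TPP1, ATP6AP2 and GAA, with untreated heights of 6 to 16. For TFE3 this rests on the tie between treated peaks given above. Limited to genes with gene-end peaks under both conditions, overlap held for 26 of 32 members and for 9210 of 12828 genes genome-wide. Lack of overlap was thus not more frequent among the members. Over the 26 genes the heights of the lists had a Spearman rho of 0.76, and over the 9210 genes of the genome with overlapping highest peaks it was 0.79. These are descriptions across genes, which share both libraries and are not independent.

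Strong peaks covered the transcription start in most cases. Of the 10 strong untreated genes with a known strand, 8 had the peak at the start and over the start itself, and CTSZ and ATP6V0C had it at the 3′ end. In the treated list 6 of 8 did, and CTSZ and ATP6V0B had it at the 3′ end. Over all strong genes with a known strand, 88.6% of untreated peaks and 89.3% of treated peaks lay at the annotated 5′ end of the gene. Strong peaks had a median width of 1032.5 bp in the untreated list and 903.5 bp in the treated list, against 740.5 and 623.5 bp for the lower peaks of the same gene list. In each list 6 of the 14 strong peaks also lay at an end of a neighbouring gene, and over all strong genes this was so for 34.9% and 34.8%.

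**Figure D2:**
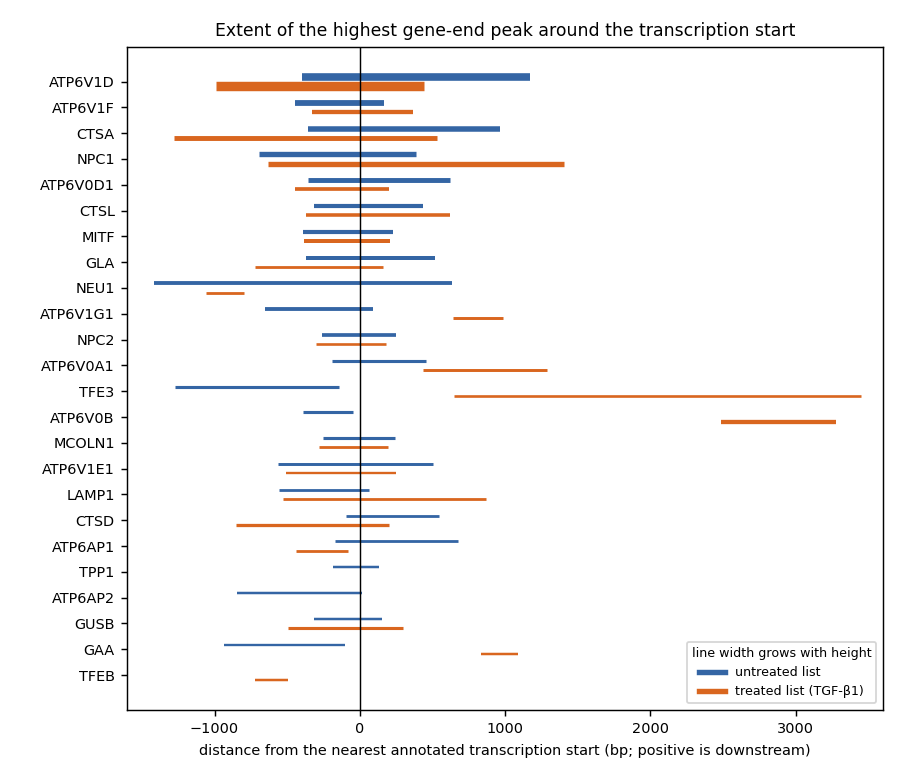
Extent of the highest gene-end peak (horizontal, bp from the nearest annotated transcription start, positive downstream) for the 24 genes with a known strand and a peak starting within 3000 bp of a start, in order of untreated height, untreated list in blue and treated list in orange. The untreated bars of ATP6V1D to ATP6V1G1 all cross the start. The treated bars of ATP6V1G1, ATP6V0B, ATP6V0A1, TFE3 and GAA lie downstream of it. That of ATP6V0B lies at the 3′ end of this short gene, and that of TFE3 is 1 of a pair of peaks tied in height.

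Strong peaks inside the genes, clear of both windows, had a share near that of all genes. They were found at 4 of the 36 genes (11.1%) in the untreated list, against 14.6% of all genes long enough to hold one, and at 4 (11.1%) in the treated list, against 14.8%. PSAP, MITF and SCARB2 were among the 4 in both lists. The fourth was ATP6V1H in the untreated list, with 17 where the treated list had 6, and ATP6V0A1 in the treated list, with 19 where the untreated list had 10.

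The 5 genes on the X chromosome, TFE3, LAMP2, GLA, ATP6AP1 and ATP6AP2, had a median height of 9 in each list, against 16 and 12 for the other members with a peak. Strong peaks were found at 1 of the 5 in each list. Over all 848 genes of that chromosome they were found at 6.84% in the untreated list and 6.72% in the treated list, below the shares over all genes.

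Matches to the E-box were more frequent in promoters of these genes than in all promoters, and matches to forkhead letters about as frequent. CLEAR was described above as an element of lysosomal genes, so its higher share among them is not independent evidence. The CLEAR core TCACGTGA was found in 6 of the 34 promoter windows (17.6%), those of ATP6V0D1, ATP6V1G1, CTSA, GAA, LAMP1 and MCOLN1, and in 1.28% of the 22174 windows of protein-coding genes. The shorter E-box CACGTG, which the CLEAR core contains, was found in 9 windows (26.5%) against 8.34%, with ATP6V0B, CTSD and NEU1 added. The forkhead letters TGTTTAC were found in 1 window, that of CTSL (2.94%), against 2.85% of all windows. The looser TGTTTNC, which contains them, was found in 6 windows of 5 genes (17.6%) against 15.3%. The ETS letters CCGGAAG were found in 2 windows (5.88%) against 12.8%, in ATP6V1D and ATP6V0D1. Among the 6 genes with a CLEAR core, CTSA and ATP6V0D1 had strong peaks over the window in both lists. The other 4 had window peaks of 6 to 16 in the untreated list, and in the treated list LAMP1 and MCOLN1 had 9 each and ATP6V1G1 and GAA had none.

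Over the promoters of the whole genome, strong peaks in both lists were more frequent where the letters of a motif were present, for each motif searched except AP-1. They overlapped 26.9% of windows with TGTTTAC and 8.29% of those without it, and for the looser TGTTTNC the shares were closer, 13% and 8.06%. For the CLEAR core the shares were 19.4% and 8.68%, for the E-box 15.9% and 8.17%, and for the ETS letters 14.7% and 7.95%. The NRF1 letters gave 18.5% and 8.58%, CRE 14.2% and 8.69%, YY1 13.9% and 8.63% and CCAAT 10.1% and 8.13%. The AP-1 letters TGANTCA went the other way, with 6.68% and 8.96%. In the lysosome and V-ATPase windows, the CRE letters TGACGTCA were found in 1 of the 34 windows (2.94%) against 2.26% of all, NRF1 GCGCATGCG in 1 (2.94%) against 2.36%, YY1 AAGATGGC in 1 (2.94%) against 3.54%, AP-1 in 1 (2.94%) against 6.14%, and CCAAT in 12 (35.3%) against 34.7%. All motifs were searched on both strands. A match describes letters in a window and is not a binding site, and these shares were not adjusted for CpG content.

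**Figure D3:**
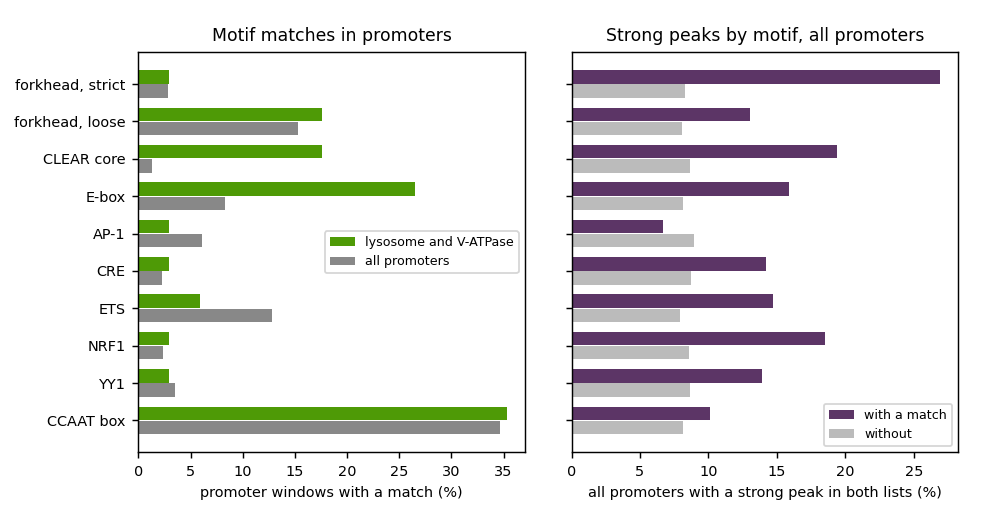
Left, share of the 34 lysosome and V-ATPase promoter windows (green) and of all 22174 windows (grey) with each motif; right, share of all windows with a strong FOXK1 peak in both lists among those with (purple) and without (light grey) the motif. The CLEAR core stands at 17.6% against 1.28% on the left, and the strict forkhead letters at 26.9% against 8.29% on the right.

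Other genes of the pathway had strong peaks at a share between that of all genes and that of the 36, and the share differed by role. Of 89 further genes, 84 and 82 had a gene-end peak in the untreated and treated lists, and 18 (20.2%) and 21 (23.6%) a strong one. Genes for other membrane proteins and for sorting had strong peaks at 8 and 10 of 23, 34.8% and 43.5%. TPCN1, an endolysosomal channel, had heights of 59 and 43, TMEM192, another protein of the lysosomal membrane, had 41 and 33, and CLCN7, the chloride-proton exchanger, 29 and 28. Other hydrolases and cofactors had strong peaks at 4 and 6 of 35, 11.4% and 17.1%, which is near the share over all genes. The highest was CTSF, cathepsin F, with 169 and 184 over its start, above every one of the 36 genes. SGSH, a sulfatase, had 55 and 44, shared with SLC26A11, and MANBA, a beta-mannosidase, 22 and 22.

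Other V-ATPase subunits and assembly factors were strong at 4 and 3 of 19. These shares, 21.1% and 15.8%, stand against 17.0% and 15.7% of all genes. TMEM9, a V-ATPase regulator, led them with 41 and 20. ATP6V0E2, an isoform of the e subunit, had 18 and 15, the assembly factor VMA22 had 19 and 14, and ATP6V0D2 had 5 and 15; in the last 2 genes the highest peaks of the lists lay at different places. At VMA22 the untreated peak of 19 also lay at an end of IMP4 and met a treated peak of 10. The treated VMA22 peak of 14 met an untreated peak of 17. At ATP6V0D2 the untreated peak of 5 met a treated peak of 5, and the treated peak of 15 met none. Genes of the Rag GTPases, Ragulator and folliculin, which carry nutrient signals to mTORC1 and TFEB, were strong at 2 and 2 of 12. That is 16.7% in each list, near the share over all genes. LAMTOR2 had 17 and 22, LAMTOR1 18 and 9, LAMTOR5 13 and 16, and RRAGA 16 and 12. The LAMTOR2 peaks also lay at an end of UBQLN4, and the RRAGA peaks at an end of SAXO1. Core autophagy genes, the pathway that feeds the lysosome, had strong peaks at 16 and 17 of 33, 48.5% and 51.5%, with 140 and 180 at WIPI1, 94 and 49 at ATG2A, 84 and 59 at RB1CC1 and 71 and 51 at WIPI2. The ATG2A peaks also lay at an end of PPP2R5B. The differences between these gene lists were not tested.

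**Figure D4:**
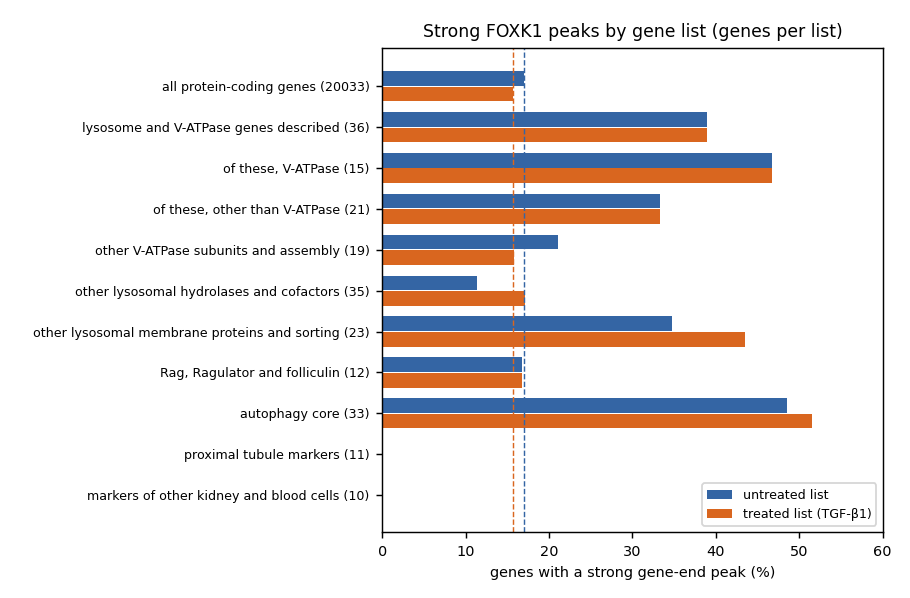
Share of genes with a strong gene-end peak (horizontal, %) in the untreated list (blue) and the treated list (orange) for each gene list, with the number of genes in brackets and the shares over all genes, 17.0% and 15.7%, as dashed lines. The lysosome and V-ATPase genes stand at 38.9% in each list, the further hydrolases at 11.4% and 17.1% and core autophagy at 48.5% and 51.5%.

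Of 11 proximal tubule markers, 5 and 6 had a gene-end peak and none a strong one; LRP2, SLC34A1, AQP1 and HNF4A had none in either list. For 10 markers of other cells of kidney and blood the counts were 6 and 6, again without a strong peak. Peaks do not measure expression, so they do not check the labelled cell type.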

How the data were processed

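Chromatin of HK-2 cells was immunoprecipitated for FOXK1, per the labels' protocols after MNase digestion and sonication. Per the submitters' processing notes, bcl2fastq 2.17, MACS2 2.1.1.20160309 and the hg38 genome were used; the aligner, read filters, peak threshold and read totals are not given in the sources used here. The deposited signal is 1 whole number per peak, at least 3, read from its values as the authors' pileup height. Peaks were listed per library, not pooled. Starts were taken as 0-based, which no source states; if they are not, printed starts are 1 bp too high. Input libraries were not analysed here as such.

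Peaks on 24 assembled chromosomes were joined by at least 1 bp to windows of 1 kb around gene ends (RefSeq, GRCh38.p14) in Python 3.11.15, numpy 2.4.6 and pandas 2.3.3; figures used matplotlib 3.10.9. Peak assignment and motif search were tested on simulated data. Strand came from the RefSeq promoter windows; the genes without one are ATP6V0E1, PSAP, ATP6V1A, ATP6V1C1, HEXA, ATP6V1H, LAMP2, ATP6V1B2 and CTSB. With 1 library per group no test of a difference was possible and no p-value is given. Counts are set beside the same count over all genes.

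The members, lists, motifs and settings were chosen with earlier results of these data known, so a high count over the members is not independent evidence. The CpG-rich, chromosome X and gene-interior counts were added after seeing the data. All members are accounted for; of the other lists, the 3 highest by either condition are named, except in the marker lists and for 1 gene that is not reported here. Alternatives varied the window, the gene ends used, the overlap rule and the minimum height.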

Additional observations from a re-analysis of the deposited data

How the results depend on the processing

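Counts of members were recomputed under other windows, gene ends, overlap rules and height minimums, giving 37 alternative values, of which 30 were within 1.5 times the reported count. Some of the 30 could not have moved, so this tally does not measure robustness. A minimum peak height of 5 cannot change counts of strong peaks, whose minimums are 17 and 15. Counts of 34 of 36 cannot rise by 1.5 times. Counting only the annotated 5′ gene ends was possible for the 27 genes with a known strand. It gave 8 strong genes in the untreated list, 6 in the treated list and 6 in both, in place of 14, 14 and 11. The shares over all genes with a known strand were 16.7%, 15.3% and 11.7%. Those 27 genes gave 10, 8 and 7 with both gene ends, so part of the move came with the smaller set and part with the ends used. Taking strong peaks down to the 5000th highest, with minimums of 23 and 21, gave 7, 5 and 5, while 9.1%, 7.65% and 6.0% of all genes were strong. Requiring a reciprocal overlap of 50% left 17 genes with shared highest peaks in place of 26, and 27.9% of all genes in place of 46.0%. Windows of 500 bp gave 29 genes with a treated peak (80.6%), against 65.0% of all genes. Windows of 2 kb gave 36, against 83.9% of all genes. Leaving out a replicate could not be run. No paired analysis was possible because each group has 1 library and the values come from no test. Depth is unknown, so the absence of a peak is not absence of binding.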
